A study of Mus musculus with 7 samples.

Results

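The genes described here are 9 Toll-like receptors of the mouse and the adaptor Myd88, 10 genes of the 21878 in the count table. They were taken by their symbols: the surface receptors Tlr1, Tlr2, Tlr4 and Tlr6, the endosomal receptors Tlr3, Tlr7, Tlr8, Tlr9 and Tlr13, and Myd88. The list was chosen with earlier results of these data known, so counts among its genes describe them and are no test. Their messenger RNA was measured in 7 libraries of tumours grown from B16F10, a pigmented mouse melanoma line, in female C57BL/6J mice. The Zelnorm group held 4 libraries (MBZ_9, MBZ_11, MBZ_13 and MBZ_15), from hosts that received oral Zelnorm, 1.25 mg/kg every 2 days, once tumours could be felt. The control group held 3 libraries (NC_5, NC_6 and NC_10). Zelnorm is the trade name of tegaserod, an agonist of a serotonin receptor. The labels do not say what the letters MBZ stand for, whether the controls received a vehicle, what the ages of the mice were, or whether each library came from its own mouse. The p-values given here therefore measure only the spread between these libraries, which may be technical.

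Toll-like receptors are membrane proteins that bind microbial molecules, or nucleic acids and other products of damaged cells, and pass the signal to adaptors that share their cytoplasmic TIR domain. Surface receptors bind mainly lipids and proteins, whereas endosomal receptors bind RNA or DNA taken up from outside. All of the receptors studied here except Tlr3 signal through Myd88, which recruits IRAK kinases and leads to NF-kappaB and interferon regulatory factors. In tumours these receptors are carried by macrophages, dendritic cells and other leukocytes, and some of them also by tumour cells.

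The libraries held between 16903598 and 19666598 counts, and the detection floor of 3 counts equalled 0.152 to 0.178 CPM (counts divided by library size, here scaled by TMM). That floor covers counting error only. The pigment cell list summed to between 33600 and 36000 CPM in Zelnorm libraries and between 30500 and 34600 CPM in NC libraries, so the labelled tumour was present in all of them. The libraries differed in their other cells. The pan-leukocyte list of 13 genes summed to between 647 and 899 CPM in Zelnorm libraries and between 594 and 667 CPM in NC libraries. Arhgdib made up 41.6% to 54.4% of that sum and had a log2 fold change of 0.07, and without it the sum ran from 338 to 525 CPM in Zelnorm libraries and from 277 to 356 CPM in NC libraries. All 13 genes were higher by their log2 fold change in edgeR, with a median of 0.67, and 7 of them at an unadjusted p under 0.05, against 6.94% of all genes. The macrophage list of 12 genes summed to between 443 and 646 CPM in Zelnorm libraries and to 260 (NC_5), 233 (NC_6) and 487 CPM (NC_10) in the controls, so NC_10 lay within the range of the Zelnorm libraries. Skeletal muscle transcripts were most abundant in MBZ_15 (342 CPM), MBZ_11 (131 CPM) and NC_5 (39.1 CPM), against 6.12 to 18 CPM in the others. Fewer cells of a type and less RNA per cell cannot be told apart in bulk tumours.

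Of the 10 genes, 9 were higher in Zelnorm tumours by their log2 fold change, and 0 passed the threshold of an adjusted p under 0.05 over all genes tested (edgeR quasi-likelihood test, Benjamini-Hochberg). Among all 12997 genes tested, 50.2% were higher, and 0.0308% passed that threshold as higher and 0% as lower. At an unadjusted p under 0.05, 8 of the 10 genes were higher and 0 lower, where 6.94% of all genes were higher and 3.38% lower. In 6 of the 10, no NC library reached the lowest Zelnorm library, which held for 5.33% of all genes, and in 0 of the 10 were the Zelnorm libraries all lower than the lowest NC library (4.27% of all genes). The median log2 fold change was 0.63 for the 10 genes and 0.00 for all genes tested. DESeq2 called 1 of the 10 as higher, Tlr8, and 0 as lower, where it called 1.42% of all genes as higher and 0.292% as lower. All 10 passed the filter on low counts.

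**Figure D1:**
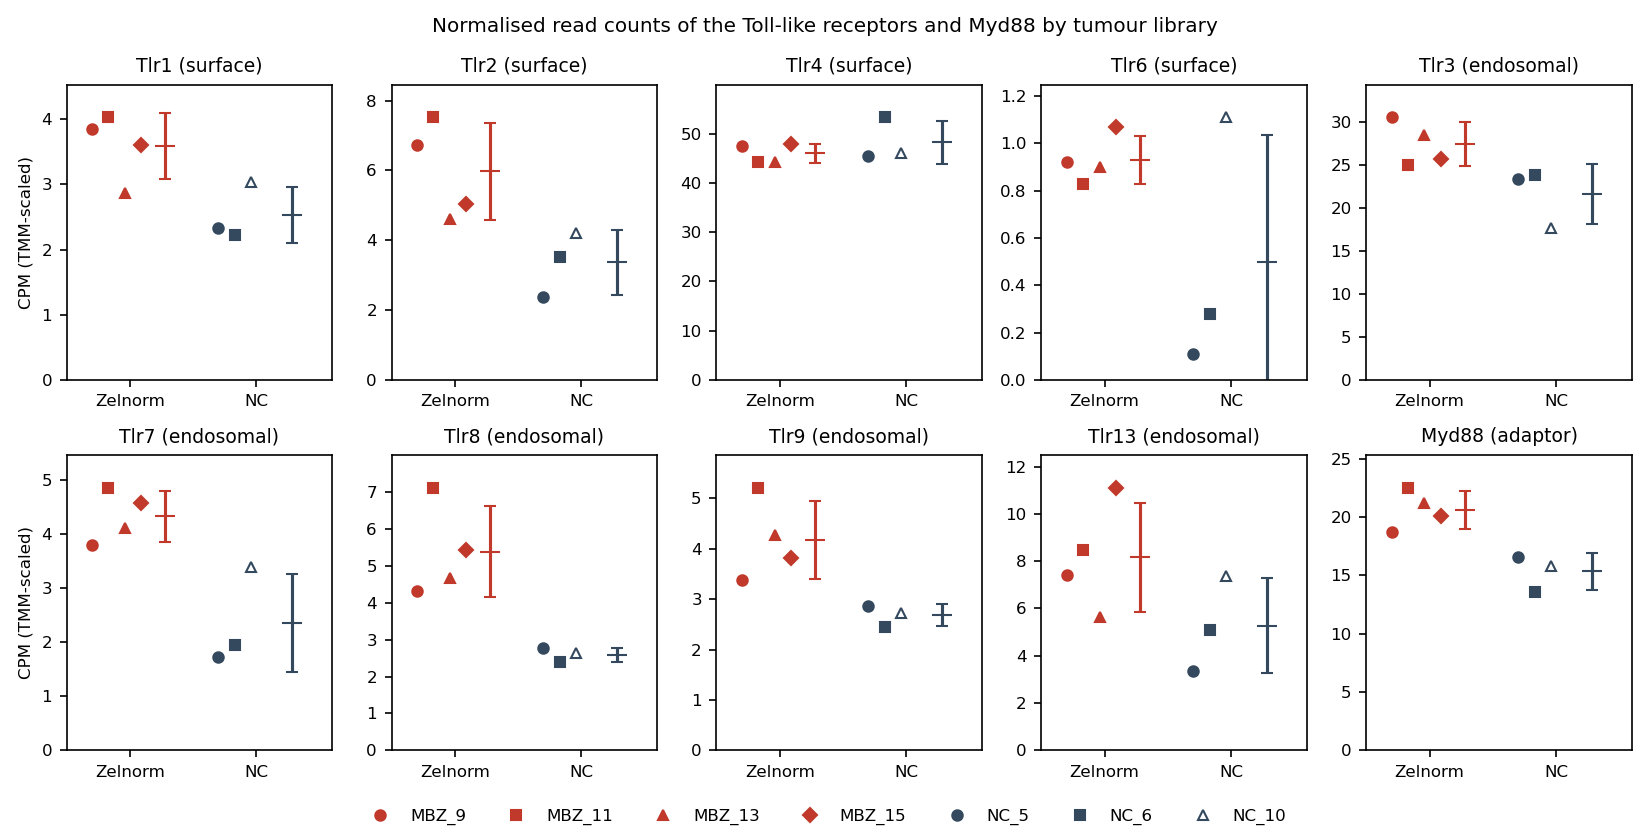
Normalised read counts (CPM scaled by TMM, vertical axes starting at 0) of the 10 genes in the 4 Zelnorm libraries and the 3 NC libraries, 1 point per library, with the mean and SD of each group beside the points (the lower SD bar of Tlr6 in NC is cut at 0). The groups do not overlap for Tlr2, Tlr3, Tlr7, Tlr8, Tlr9 and Myd88, and the open triangle of NC_10 is the highest NC library for Tlr1, Tlr2, Tlr6, Tlr7 and Tlr13.

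Levels of different genes were compared per kilobase of exon. Tlr4 had the highest mean level over the 7 libraries, 8.45 CPM per kilobase (range 7.97 to 9.59), followed by Myd88 at 7.13 (5.3 to 8.74) and Tlr3 at 4.8 (3.4 to 5.88). The ranges of these neighbours overlapped. All 3 stood above the rest, since the highest library of any other gene reached 2.58 CPM per kilobase. Tlr2 and Tlr13 both averaged 1.61 CPM per kilobase, Tlr8 1.17, Tlr9 1.02, Tlr1 0.937 and Tlr7 0.854. The ranges of these 6 overlapped with each other, whereas Tlr6, at 0.2 CPM per kilobase with a highest value of 0.299, lay below all of them. With the length of the longest transcript in place of the exons, Tlr4 stood at 11.5 and Tlr3 at 5.67 CPM per kilobase, and Myd88 between them at 7.47.

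Promoter windows from RefSeq (GRCm38.p6, from 250 bases before a transcript start site to 50 after it) were on hand for 8 of the 10 genes, Tlr4 and Tlr7 being the others. They are shown for Tlr8, Myd88 and Tlr2, the genes with the smallest p among those 8, since the 2 groups did not overlap for any of them. Capitals mark every match, on either strand, to 4 short motifs. The first, ISRE-like, is GAAA followed by 2 free bases and GAAA, after interferon-stimulated response elements. The others are TTCNNNGAA (GAS-like, after STAT sites), GGG followed by 5 free bases and CC (kappaB-like, a loose form of NF-kappaB sites), and GAGGAA (the core bound by the myeloid factor PU.1). Positions count from the start site of each window, and bases before it are negative. For Tlr8 and Myd88 that site is the first base of the gene in the RefSeq gene table, whereas for Tlr2 it lies 216 bases inside the gene (site at 83841608, first base at 83841824, minus strand).
Tlr8 (chrX:167264280-167264579, minus strand): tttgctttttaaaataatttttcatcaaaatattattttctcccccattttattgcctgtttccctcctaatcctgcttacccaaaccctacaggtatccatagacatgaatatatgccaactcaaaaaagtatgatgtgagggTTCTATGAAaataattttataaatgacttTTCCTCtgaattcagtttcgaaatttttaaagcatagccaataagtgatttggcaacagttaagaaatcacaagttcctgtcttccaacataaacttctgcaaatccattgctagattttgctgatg
Myd88 (chr9:119339969-119340268, minus strand): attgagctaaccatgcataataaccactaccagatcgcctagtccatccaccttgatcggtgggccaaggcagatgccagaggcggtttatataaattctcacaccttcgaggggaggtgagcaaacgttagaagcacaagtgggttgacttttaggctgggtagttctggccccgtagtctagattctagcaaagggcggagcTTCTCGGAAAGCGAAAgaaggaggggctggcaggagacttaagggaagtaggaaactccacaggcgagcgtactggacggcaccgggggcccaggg
Tlr2 (chr3:83841559-83841858, minus strand): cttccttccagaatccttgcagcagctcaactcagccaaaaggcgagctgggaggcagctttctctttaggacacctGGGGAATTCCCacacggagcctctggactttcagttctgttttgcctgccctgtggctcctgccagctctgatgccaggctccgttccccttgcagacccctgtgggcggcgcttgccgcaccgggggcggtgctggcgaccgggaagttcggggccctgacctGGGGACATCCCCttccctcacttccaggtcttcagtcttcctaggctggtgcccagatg

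In the Tlr8 window TTCTATGAA began at -106 and GAGGAA, read on the opposite strand, at -77. In the Myd88 window TTCTCGGAA began at -46 and GAAAGCGAAA at -40, and they share the bases GAA, the end of the first and the start of the second. The Tlr2 window held 7 kappaB-like matches, which overlap in a stretch from -173 and another from -9, both within the annotated gene. The windows of Tlr1, Tlr3 and Tlr6 also had start sites inside the gene, by 42 (Tlr1) to 11776 bases (Tlr6). Over the 8 genes, the ISRE-like motif was found for 2 (Myd88 and Tlr6), the GAS-like one for 4, the kappaB-like one for 3 and GAGGAA for 4. Tlr1 and Tlr6 had 2 windows each, so the 8 genes had 10 windows. Of these 10, 2 held the ISRE-like motif, 4 the GAS-like, 3 the kappaB-like and 4 GAGGAA. Of all 32851 windows of the same length, 3.44% held the ISRE-like, 8.3% the GAS-like, 50.8% the kappaB-like motif and 28.3% GAGGAA. These matches describe the letters of the windows and were not tested for binding.

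Of the 4 surface receptors, 3 were higher in Zelnorm tumours. Tlr2, which recognises bacterial lipopeptides as a partner of Tlr1 or Tlr6, had 6.73, 7.52, 4.61 and 5.03 CPM in the Zelnorm libraries MBZ_9, MBZ_11, MBZ_13 and MBZ_15, against 2.38, 3.51 and 4.2 CPM in NC_5, NC_6 and NC_10. The lowest Zelnorm library lay just above NC_10, the highest control. Tlr2 averaged 5.97 ± 1.38 CPM in Zelnorm tumours and 3.36 ± 0.916 CPM in NC tumours (SD, n = 4 and 3 libraries). Its log2 fold change was 0.82 ± 0.25 (SE, edgeR adjusted p = 0.285 over all genes). Tlr1, its partner for triacylated lipopeptides, had 3.85, 4.03, 2.87 and 3.61 CPM in the Zelnorm libraries in the same order, against 2.33, 2.23 and 3.03 CPM in the NC libraries. Only MBZ_13 and NC_10 overlapped. The log2 fold change of Tlr1 was 0.50 ± 0.22 (edgeR adjusted p = 0.476).

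Tlr6, the partner for diacylated lipopeptides, was sparse. It had 16, 14, 16 and 21 counts in the Zelnorm libraries, against 2, 5 and 22 counts in NC_5, NC_6 and NC_10, of which the first lies under the floor of 3. The Zelnorm libraries were close to each other, and NC_10 lay above all of them. The log2 fold change of 0.87 ± 0.59 (edgeR adjusted p = 0.67) was 2.23 without NC_10, 0.40 without NC_5 and 0.58 without NC_6. Tlr1 and Tlr6 are neighbours on chromosome 5 (64924680 to 64933600 and 64953092 to 64970942, GRCm38) with related sequences. Of the 50-base words in the transcripts of Tlr1, 13.6% also occur in those of Tlr6, and 12.3% of those of Tlr6 occur in Tlr1, so part of either count is uncertain.

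Tlr4, the receptor for bacterial lipopolysaccharide, was the only one of the 10 genes with a fold change below 0. It had 47.5, 44.3, 44.3 and 47.9 CPM in the Zelnorm libraries, against 45.4, 53.3 and 46 CPM in the NC libraries. The groups overlapped throughout, and NC_6 was the highest of the 7. Tlr4 averaged 46 ± 1.98 CPM in Zelnorm tumours and 48.3 ± 4.38 CPM in NC tumours (SD), a log2 fold change of -0.07 ± 0.07 (edgeR adjusted p = 0.811). Its 95% interval, from -0.23 to 0.09, was the narrowest of the 10 genes and reached neither the estimate of Tlr8 (1.05) nor that of Tlr2. Of its coreceptors, Cd14, which hands over lipopolysaccharide, had a log2 fold change of 0.62 ± 0.34 (edgeR adjusted p = 0.574), and Ly96, which binds it on the receptor, of -0.20 ± 0.25 (edgeR adjusted p = 0.838).

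Among the endosomal receptors, all 5 were higher at an unadjusted p under 0.05, where 6.94% of all genes were higher. Tlr13 lay near that threshold, at an edgeR unadjusted p of 0.0488. Tlr8, which senses breakdown products of RNA in human cells and is less responsive in the mouse, had the smallest p of the 10 genes and ranked 56 of 12997. It had 4.32, 7.11, 4.67 and 5.43 CPM in the Zelnorm libraries, against 2.76, 2.39 and 2.63 CPM in the NC libraries. The controls lay close together and every Zelnorm library lay well above them, MBZ_11 the farthest. Tlr8 averaged 5.38 ± 1.24 CPM in Zelnorm tumours and 2.6 ± 0.186 CPM in NC tumours (SD), with a log2 fold change of 1.05 ± 0.22 (95% interval 0.56 to 1.53; edgeR adjusted p = 0.152). DESeq2 gave 1.04 and an adjusted p of 0.00803, so the call depends on the tool. Tlr8 counts ran from 43 to 120.

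Tlr7, a sensor of single-stranded RNA and the neighbour of Tlr8 on chromosome X (Tlr7 at 167303380 to 167330574, Tlr8 at 167241123 to 167264329), had 3.8, 4.86, 4.11 and 4.57 CPM in the Zelnorm libraries, against 1.73, 1.95 and 3.39 CPM in the NC libraries. NC_10 came close to the lowest Zelnorm library and stood apart from the other controls. Its log2 fold change was 0.87 ± 0.26 (edgeR adjusted p = 0.28). Without NC_10 it was 1.23 with an adjusted p of 0.0383 in edgeR, in a fit that called 1.2% of all genes as higher, and Tlr7 was then the only one of the 10 to pass. No 50-base word of the transcripts of Tlr7 or Tlr8 occurs in another gene on the same strand.

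Tlr9, the receptor for unmethylated CpG DNA, had 3.39, 5.21, 4.28 and 3.81 CPM in the Zelnorm libraries, against 2.87, 2.45 and 2.73 CPM in the NC libraries. The groups did not overlap, MBZ_9 being nearest to the controls. The log2 fold change was 0.63 ± 0.21 (edgeR adjusted p = 0.334). Tlr13, which recognises bacterial ribosomal RNA and has no human counterpart, had 7.42, 8.47, 5.63 and 11.1 CPM in the Zelnorm libraries, against 3.36, 5.07 and 7.38 CPM in the NC libraries. NC_10 lay above MBZ_13 and next to MBZ_9. The log2 fold change of 0.63 ± 0.28 (edgeR adjusted p = 0.482) was 0.96 without NC_10, 0.39 without NC_5, and 0.06 without MBZ_15, MBZ_11 and NC_5, the libraries richest in muscle transcripts (removed together as an alternative added after seeing the data).

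Tlr3, the receptor for double-stranded RNA that signals through Ticam1 in place of Myd88, was the most abundant endosomal receptor. It had 30.6, 25.1, 28.5 and 25.7 CPM in the Zelnorm libraries, against 23.4, 23.9 and 17.7 CPM in the NC libraries. Here NC_10 was the lowest library, unlike for Tlr1, Tlr2, Tlr6, Tlr7 and Tlr13. Tlr3 averaged 27.5 ± 2.56 CPM in Zelnorm tumours and 21.7 ± 3.46 CPM in NC tumours (SD), a log2 fold change of 0.34 ± 0.12 (edgeR adjusted p = 0.345) that was 0.21 without NC_10. An antisense gene, Gm45542, covers 7.32% of its exon bases, and the strand setting of the counting is not given.

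Myd88, the shared adaptor (chromosome 9, 119335934 to 119340018), had 18.7, 22.5, 21.2 and 20.1 CPM in the Zelnorm libraries, against 16.6, 13.6 and 15.8 CPM in the NC libraries. The groups did not overlap. Myd88 averaged 20.6 ± 1.62 CPM in Zelnorm tumours and 15.3 ± 1.51 CPM in NC tumours (SD), with a log2 fold change of 0.43 ± 0.10 (95% interval 0.20 to 0.65; edgeR adjusted p = 0.163), the second smallest p of the 10. With any 1 library left out it lay between 0.34 and 0.49. In DESeq2 the adjusted p was 0.0505 over its own set of genes and 0.0434 over the genes that edgeR tested, a run added after seeing the data in which 1.48% of all genes were called as higher. Of the exon bases of Myd88, 11.3% overlap Acaa1a, a peroxisomal thiolase gene on the opposite strand, whose log2 fold change was -0.03 ± 0.06.

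**Figure D2:**
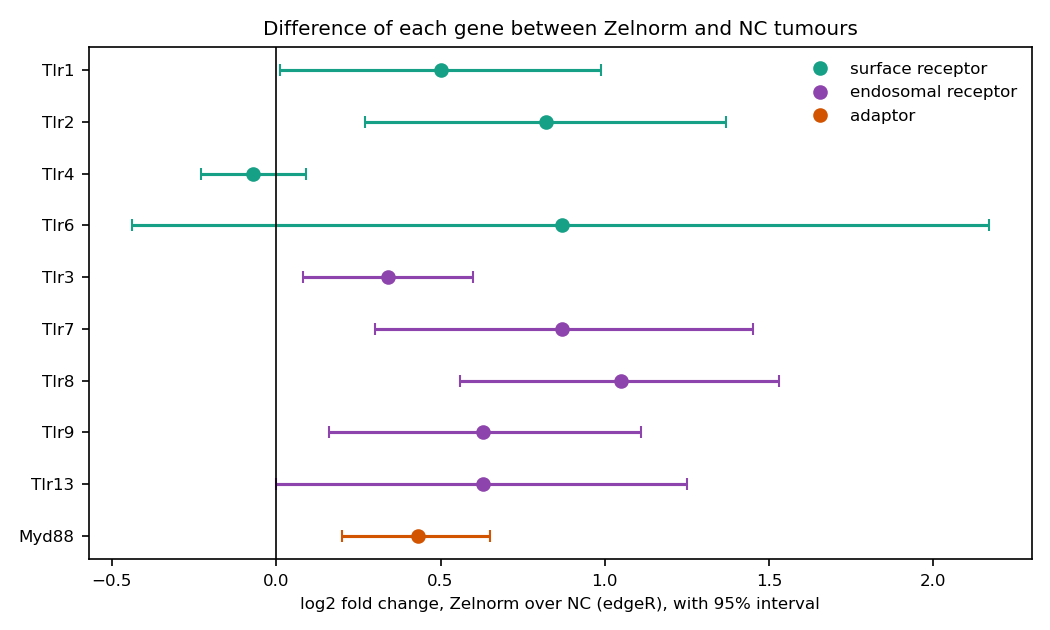
Log2 fold change, Zelnorm over NC, of each gene from edgeR (points) with its 95% interval (bars), coloured by surface receptor, endosomal receptor or adaptor. The interval of Tlr4 runs from -0.23 to 0.09, that of Tlr6 from -0.44 to 2.17, and that of Tlr8 from 0.56 to 1.53.

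The 10 genes varied between libraries of 1 group in different ways. Among the controls NC_10 was the highest library for 5 genes and the lowest for 1, and it was also the control with the highest pan-leukocyte and macrophage sums. Relative to the mean of the controls, NC_10 lay at 1.38 for Tlr6, 0.56 for Tlr7 and 0.55 for Tlr13 on the log2 scale, at 0.02 for Tlr8, 0.03 for Tlr9 and 0.05 for Myd88, and at -0.28 for Tlr3. Among the Zelnorm libraries MBZ_11, which had the highest pan-leukocyte sum, was highest for 6 genes. MBZ_15 was highest for 3 and MBZ_13 for 0.

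Values were then set against the leukocyte transcripts of each library. Per 100 CPM of the pan-leukocyte list, Tlr8 had 0.542, 0.791, 0.721 and 0.728 CPM in the Zelnorm libraries MBZ_9, MBZ_11, MBZ_13 and MBZ_15, against 0.42, 0.403 and 0.394 CPM in NC_5, NC_6 and NC_10. The groups did not overlap on this scale, which held in this direction for 1.12% of all genes tested. The same was true of Tlr2, at 0.767 ± 0.0871 CPM in Zelnorm tumours and 0.528 ± 0.144 CPM in NC tumours (SD), again per 100 CPM of leukocyte transcripts. Tlr4 ran the other way on this scale, with all Zelnorm libraries below all NC libraries, as for 19.9% of all genes tested, at 6.04 ± 0.822 CPM in Zelnorm tumours and 7.6 ± 1.2 CPM in NC tumours. The other 7 genes overlapped, with Myd88 at 2.71 ± 0.406 CPM in Zelnorm tumours and 2.4 ± 0.114 CPM in NC tumours. Without Arhgdib in the list, an alternative added after seeing the data, Tlr8 stood at 1.27 ± 0.211 CPM in Zelnorm tumours and 0.842 ± 0.0942 CPM in NC tumours, and Tlr2 at 1.39 ± 0.0901 and 1.08 ± 0.25 CPM in the same order. Neither gene's groups overlapped (0.531% of all genes tested), though the lowest Zelnorm library for Tlr8, at 0.952 CPM, lay close to NC_5 at 0.922 CPM, as did 1.28 CPM in MBZ_15 to 1.27 CPM in NC_6 for Tlr2. The groups of Tlr4 then overlapped, where 22.2% of all genes tested had every Zelnorm library below every NC library. The list without Arhgdib still held Lcp1 and Ptpn6, whose log2 fold changes of 0.30 and 0.15 lay below the median of the full list (0.67). They averaged 83.9 and 75.5 CPM in NC tumours, where the sum without Arhgdib ran from 277 to 356 CPM. The scale without Lcp1 and Ptpn6 was not run. Per 100 CPM of Csf1r, the macrophage growth factor receptor, all 10 genes overlapped between the groups, where 0.208% of all genes tested did not overlap as higher and 1.82% as lower, and NC_10 was the lowest library for Tlr8, at 4.65 CPM, against 9.75 to 12.4 CPM in Zelnorm libraries and 10.1 and 11.1 CPM in NC_5 and NC_6. These are values with no test.

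The mean level of the leukocyte list entered as a covariate in edgeR left 3 genes at an unadjusted p under 0.05, Tlr3 (log2 fold change 0.54), Tlr8 (0.74) and Myd88 (0.36), where 3.43% of all genes were higher at that threshold, and their edgeR adjusted p ran from 0.76 to 0.826. In the same fit Tlr2 stood at 0.25, Tlr1 at 0.09, Tlr13 at 0.22 and Tlr7 at 0.54. With the macrophage level as the covariate, added after seeing the data, the same 3 genes were at an unadjusted p under 0.05 (4.89% of all genes), and Tlr3 passed the threshold, with a log2 fold change of 0.62 and an edgeR adjusted p of 0.0489 in a fit that called 0.339% of all genes as higher. Without MBZ_15, MBZ_11 and NC_5 together, the unadjusted count was again 3 (2.83% of all genes were higher), with Tlr3 at 0.50, Tlr8 at 0.83 and Myd88 at 0.43, and their edgeR adjusted p was 0.999. The leukocyte level followed the groups closely: each Zelnorm library lay above each NC library, except that MBZ_13 lay below NC_10. On the macrophage level, NC_10 was the only control within the range of the Zelnorm libraries. With so few libraries, the covariate fits cannot separate these levels from the group. The part of leukocyte number in the fold changes was therefore not tested. The macrophage list had 12 of 12 genes higher, with a median of 0.61 and 7 at an unadjusted p under 0.05. The monocyte list had 7 of 7 higher, with a median of 0.75 and 3 at that threshold. Other lists also ran higher, the T cell list in 8 of 8 genes with a median of 0.97 and 1 at an unadjusted p under 0.05. The fibroblast list did so in 7 of 7 with 0.56 and 2, and the conventional dendritic cell list in 6 of 8 with 0.52 and 0. The skeletal muscle list did so in 8 of 8 with 3.02 and 5, and the adipocyte list in 5 of 5 with 0.54 and 0. Of all genes tested, 6.94% were higher at that threshold in the fit without a covariate. The endothelial list had a median of 0.05. The neutrophil, B cell and plasmacytoid dendritic cell lists had 3 or 4 genes with enough counts to test. Siglech, of the plasmacytoid dendritic cell list, had 7, 5, 1 and 6 counts in Zelnorm libraries and 2, 3 and 3 counts in NC libraries. Siglech itself was not tested. Its list had 3 of 4 tested genes higher. The sum of that list ran from 44.8 to 49.2 CPM in Zelnorm libraries and from 46.5 to 52.8 CPM in NC libraries. Most of the sum came from Tcf4, at -0.16 ± 0.08 (edgeR adjusted p = 0.537).

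**Figure D3:**
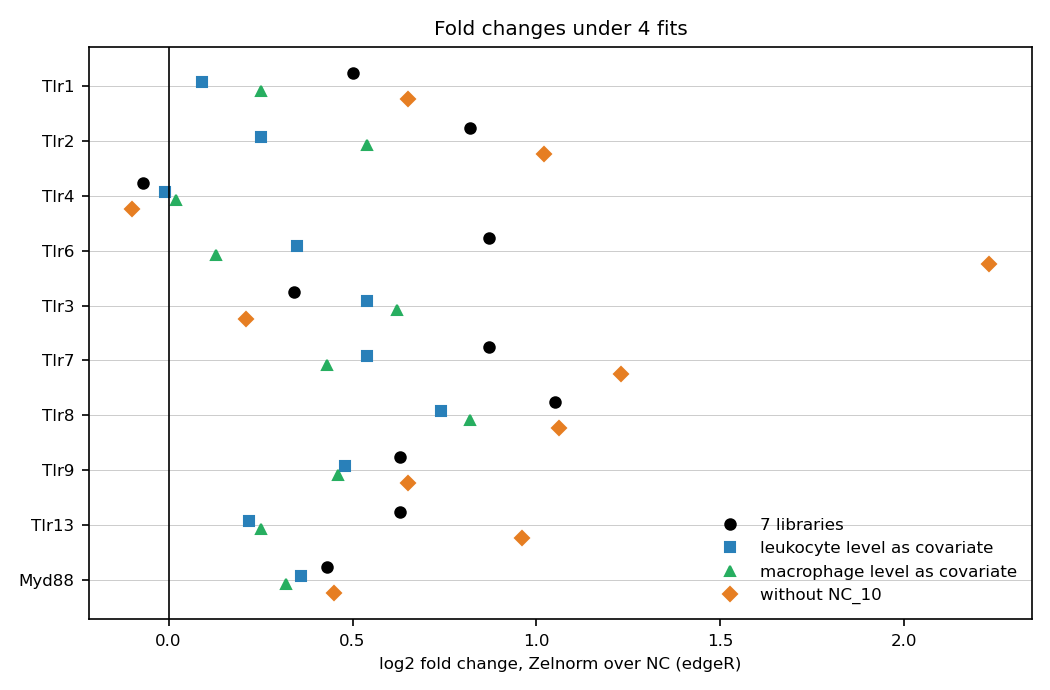
Log2 fold change, Zelnorm over NC, of each gene in 4 edgeR fits: all 7 libraries, the mean level of the leukocyte list as a covariate, that of the macrophage list as a covariate, and without NC_10. Tlr8 lies between 0.74 and 1.06 in these fits and Myd88 between 0.32 and 0.45, while Tlr6 runs from 0.13 to 2.23.

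The rest of the pathway was followed in lists of genes by role. Of 80 genes tested, 0 passed the adjusted threshold in edgeR. At an unadjusted p under 0.05 21 were higher and 1 lower, where 6.94% of all genes were higher and 3.38% lower. DESeq2, which called 1.42% of all genes as higher, called 3 of these, 2 of them coreceptors or trafficking factors and 1 a transcription factor. The family's other receptors are sparse in these tumours. Tlr12, which with Tlr11 binds profilin of protozoa, had 24, 36, 36 and 20 counts in the Zelnorm libraries, against 13, 20 and 7 counts in the NC libraries, and a log2 fold change of 1.18 ± 0.43 (edgeR adjusted p = 0.387). Tlr5, the flagellin receptor, had a log2 fold change of 0.44 ± 0.41 (edgeR adjusted p = 0.774). Tlr11 had between 1 and 7 counts in Zelnorm libraries and between 0 and 4 in NC libraries and was not tested.

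Coreceptors and trafficking factors had 12 of 13 genes higher and a median log2 fold change of 0.41. At an unadjusted p under 0.05, 6 of them were higher and 0 lower, where 6.94% of all genes were higher and 3.38% lower. Unc93b1, the chaperone that carries nucleic acid-sensing receptors to endosomes, averaged 55.1 ± 8.52 CPM in Zelnorm tumours and 40.6 ± 6.61 CPM in NC tumours (log2 fold change 0.44 ± 0.13, edgeR adjusted p = 0.282). Ctss, a cathepsin that can cleave these receptors to their active form, averaged 76.9 ± 10.9 CPM in Zelnorm tumours and 39.3 ± 11.9 CPM in NC tumours (0.96 ± 0.17, edgeR adjusted p = 0.0946). The endolysosomal transporters Slc15a3 (0.75 ± 0.16, edgeR adjusted p = 0.152) and Slc15a4 (0.25 ± 0.07, edgeR adjusted p = 0.248) had all Zelnorm libraries above all NC libraries, as had Ctss and Cd180. This held for 4 of the 13 genes and for 5.33% of all genes tested. Cd180, a receptor-like protein of B cells and myeloid cells, was at 0.67 ± 0.21. The folding helpers Hsp90b1 and Cnpy3, which most cells express, were at 0.06 ± 0.10 and 0.04 ± 0.07.

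The signalling chain below the receptors showed smaller values. Of the other TIR adaptors and related proteins, 4 of 5 were higher, and only Pik3ap1, a link to PI3 kinase that is made by leukocytes, was at an unadjusted p under 0.05 (0.51 ± 0.16, edgeR adjusted p = 0.296). Ticam1, through which Tlr3 signals, was at -0.11 ± 0.08, Ticam2 at 0.53 ± 0.41 and Tirap, the bridge to Myd88, at 0.02 ± 0.08. Among 19 kinases and ubiquitin ligases, 12 were higher and the median was 0.02. There Irak1 stood at 0.01 ± 0.06, Irak4 at 0.14 ± 0.09, Irak2 at 0.19 ± 0.10 and Traf6 at -0.08 ± 0.08. At an unadjusted p under 0.05, 1 of the 19 was higher, Tbk1 (0.15 ± 0.06, edgeR adjusted p = 0.456). Another 1 was lower, Tab1 (-0.27 ± 0.10, edgeR adjusted p = 0.364). Of all genes, 6.94% were higher and 3.38% lower at that threshold, so the shares among the 19 lie near those of all genes.

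Of 9 transcription factors, 7 were higher, with a median of 0.10, and 4 at an unadjusted p under 0.05, against 6.94% of all genes. Irf7, which Myd88 engages below Tlr7 and Tlr9 and which interferon itself induces, averaged 30.5 ± 5.98 CPM in Zelnorm tumours and 14.2 ± 2.61 CPM in NC tumours (1.10 ± 0.16, edgeR adjusted p = 0.0559). Irf5 was at 0.56 ± 0.19, Irf8 at 0.77 ± 0.31 and Jun at 0.26 ± 0.07. The NF-kappaB subunits Nfkb1 and Rela were at 0.10 ± 0.06 and 0.03 ± 0.06. Of 12 negative regulators, 9 were higher, with a median of 0.17, and 1 was at an unadjusted p under 0.05, a share near the 6.94% of all genes. The 3 with the smallest p are given as values: Sigirr, an inhibitory receptor of the interleukin-1 receptor family, was at 0.18 ± 0.08, Inpp5d, a lipid phosphatase of leukocytes, at 0.45 ± 0.24, and Tnip1, a partner of the ubiquitin editor Tnfaip3, at 0.15 ± 0.08.

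Genes that these receptors can induce were higher in 14 of 14 tested cases, with a median of 0.68, and 5 were at an unadjusted p under 0.05, against 6.94% of all genes. The median level was 1.83 CPM, and 6 of 20 had too few counts to test. Cxcl10, an interferon-inducible chemokine and an abundant member, had 56.2, 70.2, 47.5 and 48 CPM in the Zelnorm libraries, against 35.7, 51.3 and 23.7 CPM in the NC libraries (0.59 ± 0.22, edgeR adjusted p = 0.394). NC_6 lay above MBZ_13 and MBZ_15. Acod1, which makes itaconate in activated macrophages, had 32, 23, 7 and 47 counts in the Zelnorm libraries, against 8, 9 and 5 counts in the NC libraries (1.92 ± 0.58, edgeR adjusted p = 0.287). MBZ_13 lay among the controls. Tnf had 10, 11, 17 and 11 counts in the Zelnorm libraries, against 7, 4 and 6 counts in the NC libraries (1.16 ± 0.43, edgeR adjusted p = 0.392). Ccl2, a monocyte attractant with 128 to 383 counts, was at 0.66 ± 0.22. Il1b, at 1.14 ± 0.65, was high in MBZ_9 and MBZ_15, with 49 and 69 counts, against 11 and 9 counts in MBZ_11 and MBZ_13. The interleukin-1 family genes that share Myd88 had 6 of 6 higher and 2 at an unadjusted p under 0.05. Both chains of the interleukin-18 receptor had all Zelnorm libraries above all NC libraries, as had 5.33% of all genes tested, with at most 22 counts in any library. Il18r1 was at 1.47 ± 0.52 (edgeR adjusted p = 0.362) and Il18rap at 1.26 ± 0.48 (edgeR adjusted p = 0.395). The cytokine gene Il33 was at 0.57 ± 0.33.

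**Figure D4:**
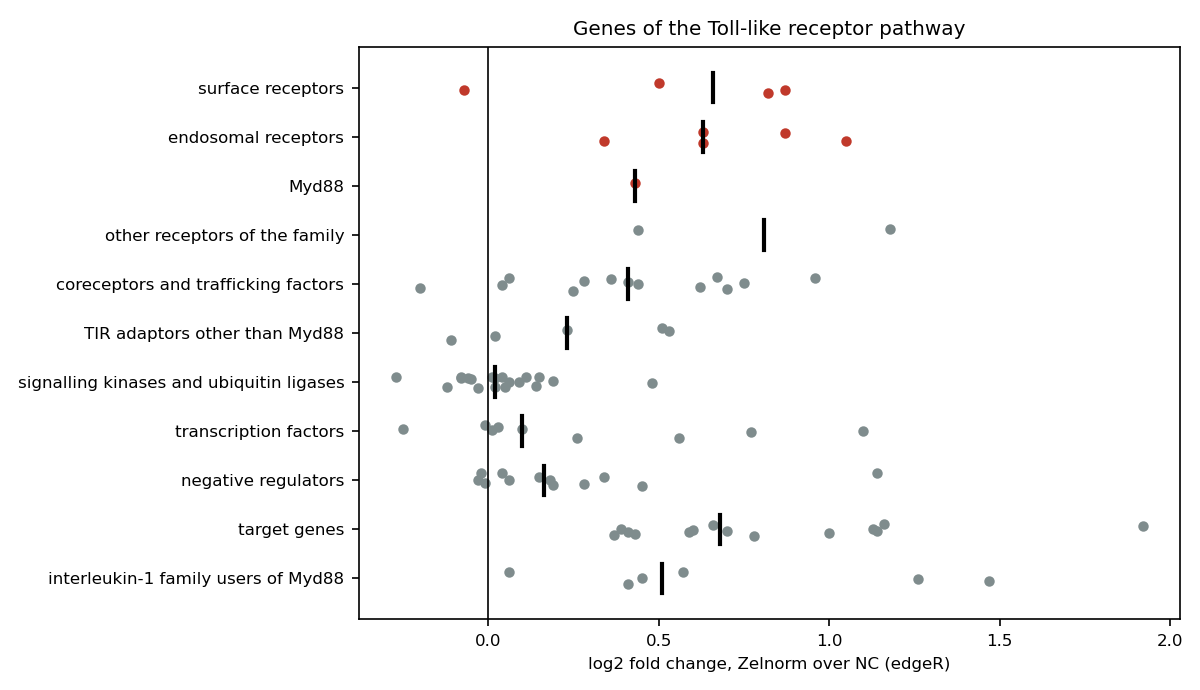
Log2 fold change, Zelnorm over NC, from edgeR for each tested gene (points) of the Toll-like receptor pathway, by role, with the median of each list (black bars). The receptors and Myd88 (red) have medians of 0.66 (surface), 0.63 (endosomal) and 0.43 (Myd88), against 0.02 for kinases and ubiquitin ligases and 0.68 for target genes.

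Genes whose values ran most like those of Myd88 over the 7 libraries were sought among 11447 genes by the root mean square difference of centred log2 CPM. The nearest were Psd (0.0617), Mum1l1 (0.0623), Rbm12b1 (0.0682), Zbtb2 (0.0806) and Ier5 (0.0814), against a median of 0.269 for all genes compared. For Tlr4, the receptor with the highest mean CPM, the nearest were Trim59 (0.0241), Nup107, Ddx3x, Serinc1 and Dusp11 (0.0294), against a median of 0.138. The log2 fold changes of these 5 genes lay between -0.10 and -0.05. That closeness to Tlr4 follows from the choice, since the likeness covers the difference between the groups. None of the 10 neighbours is a marker of a cell type in the lists used here. Those lists hold few of the 11447 genes compared, so this absence says nothing about cell types.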

How the data were processed

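The 7 libraries from B16F10 tumours (4 Zelnorm, 3 NC) were prepared with a stranded kit (TruSeq Stranded mRNA), per the labels' protocols. The authors deposited raw read counts per gene, 1 column per library, and the submitters' processing notes name Trimmomatic, HISAT2, Cufflinks, HTSeq, DESeq and the genome builds GRCh38 and GRCm38. Roles of these tools, annotation, strand setting and filters: not given in the sources used here. Gene identifiers are of the mouse, and 21725 of 21878 were found in the RefSeq gene table of GRCm38.p6, from which coordinates come. Exon lengths and 50-base words come from GENCODE M21, a GRCm38 annotation. Columns name the group but not the replicate number of the sample titles, so each was assigned to its group only. The chi-square per degree of freedom between libraries lay between 6.54 and 20.8, so none was a copy of another.

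Genes were filtered with filterByExpr (12997 kept), scaled by TMM (factors 0.986 to 1.01) and tested with edgeR 4.0.16 in R 4.3.3 (quasi-likelihood, Benjamini-Hochberg over all genes tested, threshold 0.05). The SE of each log2 fold change follows from the F statistic, and SE and SD include the spread between libraries. Alternatives were RLE and upper quartile scaling, no filter or a mean count of at least 50, DESeq2 1.42.0, limma voom (limma 3.58.1), covariates for leukocyte and skeletal muscle levels (mean log2 CPM, prior count 2) and leaving out each library. The genes and lists were chosen with earlier results of these data known. Named were the 10 genes, the 3 with the smallest p of each list, the 5 nearest to Myd88 and to Tlr4, and reference genes. Acaa1a, Siglech and further genes of the lists (among them Arhgdib, Lcp1, Ptpn6, Cxcl10, Unc93b1, Cd14, Ly96, Cd180, Hsp90b1, Cnpy3, Tirap, Irak1, Irak4, Traf6, Irf8, Nfkb1, Rela and Il1b) were named after their values were seen. The fit was also run on simulated counts, whose outcome is not given here, so no statement rests on it. Figures used matplotlib 3.10.9 in Python 3.11.15.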

Additional observations from a re-analysis of the deposited data

How the results depend on the processing

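Of the 10 genes, 0 passed as higher under RLE or upper quartile scaling, with no low-count filter, with a mean count of at least 50 (Tlr6 then not tested), in limma voom, or with the leukocyte or muscle covariate. The number was 1 in DESeq2 (Tlr8), 2 in DESeq2 on the genes tested by edgeR (Tlr8 and Myd88), 1 with the macrophage covariate (Tlr3) and 0 to 1 when each library was left out (Tlr7 without NC_10). None passed as lower under any of these. The number at an unadjusted p under 0.05, 8, was 3 with the leukocyte covariate, 5 with the muscle covariate and 3 with the macrophage covariate. It was 3 without the 3 libraries richest in muscle transcripts, and 6 to 8 when each library was left out. It stayed at 8 with RLE scaling or no low-count filter. The number was 6 with upper quartile scaling, 7 with a mean count of at least 50, 7 in either DESeq2 run and 9 in limma voom. Tlr4 reversed, to 0.02, with the macrophage covariate, and no other of the 10 genes changed direction under any alternative run. Per 100 CPM of leukocyte transcripts, Tlr4 alone had all Zelnorm libraries below all NC libraries; without Arhgdib in the list this held for 0 of the 10.

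Over the whole table, 4 genes passed as higher and 0 as lower. The numbers were 29 and 5 with no low-count filter, 171 and 35 in DESeq2, 181 and 35 in DESeq2 on the genes tested by edgeR, 1 and 1 with the leukocyte covariate, and 44 and 6 with the macrophage covariate. With the muscle covariate 4 passed as higher and 1 as lower, and without the 3 libraries richest in muscle transcripts 0 and 0 passed, with 4 libraries left. When each library was left out, 0 (without NC_5) to 157 (without NC_10) passed as higher and 0 to 4 as lower. The cause of these differences was not tested. The macrophage covariate, the removal of 3 libraries, the list without Arhgdib and the second DESeq2 run were chosen after seeing the data. No paired analysis was possible because the columns carry no replicate number. Depth limits Tlr6, Tlr11 and several target genes, whose counts lie near the floor in some libraries.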
